A study of Ovis aries with 6 samples.

Results

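The 10 genes described here encode brakes on the cell cycle. They are 5 inhibitors of cyclin-dependent kinases (CDKN1A, CDKN1B, CDKN1C, CDKN2C and CDKN2D), the 3 GADD45 genes (GADD45A, GADD45B and GADD45G) and a pair of BTG genes (BTG1 and BTG2). They were taken by gene symbol from the deposited gene table, and all 10 of the symbols were found among its 23144 genes. Back muscle (longissimus dorsi) was sampled from 6 sheep, and each animal gave 1 library. There were 3 animals of the Qianhua Mutton Merino breed (QHMM) and 3 of the Small Tail Han breed (STH), all of them females aged 1 year that had been kept in the same environment with food and water freely available. By the study's methods, live weight was taken after a fast before slaughter, so the feeding state at sampling may differ from free feeding in both breeds. The labels name no treatment, and the only comparison was STH vs. QHMM. The genes were chosen by family with their counts in these 6 libraries, and so their difference between the breeds, already known. The values and calls below therefore describe them and serve as no independent evidence.

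A proliferating cell passes from G1 into S phase when cyclin-dependent kinases phosphorylate the retinoblastoma protein and its relatives. The CIP/KIP inhibitors p21 (CDKN1A), p27 (CDKN1B) and p57 (CDKN1C) bind cyclin-kinase complexes, and the INK4 inhibitors p18 (CDKN2C) and p19 (CDKN2D) bind CDK4 and CDK6 directly. GADD45 proteins are small acidic stress-response proteins that bind the kinase MAP3K4, p21 and PCNA. BTG1 and BTG2 bind the CCR4-NOT complex, which shortens the poly(A) tails of mRNAs. In skeletal muscle, p21 and p57 are known for the cell cycle exit of differentiating myoblasts, and GADD45A is known as a gene that rises in fibres that have lost their nerve.

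Between 10982191 and 13546561 reads were counted on genes in the STH libraries, and between 12382244 and 14334544 in the QHMM libraries. Counts were normalized by the TMM method, which corrects for library size and composition, and a normalized count is given on the scale of the mean library. The 12506 genes that passed a filter for low counts were tested with edgeR's quasi-likelihood F test, and all 10 genes were among them. A gene was called when its Benjamini-Hochberg false discovery rate (FDR) was below 0.05 and the breeds differed more than 1.5-fold in either direction. Log2 changes, short for log2 fold changes, are STH minus QHMM and carry a standard error (SE), whereas means carry the SD over 3 libraries. Of 8 skeletal myofibre markers, ACTA1, CKM, MYLPF, TNNC2, ATP2A1, RYR1 and DES were present in every library, and TNNT3 was at 0 in all 6. Their summed level was 131727 to 149019 RPKM in QHMM and 106067 to 159689 RPKM in STH, and 0 of the 7 tested were called.

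In the muscle of STH sheep, GADD45G, BTG1 and CDKN1A were higher than in QHMM, and CDKN2C was lower. GADD45G rose 23.5-fold, BTG1 4.89-fold and CDKN1A 4.86-fold, and CDKN2C was 2.68-fold higher in QHMM. The other 6 genes were not called. Over all genes tested, 1.62% were called higher and 1.83% lower in STH. The libraries of the breeds did not overlap for 4 of the 10 genes with STH above (CDKN1A, CDKN1B, GADD45G and BTG1) and for 2 with STH below (CDKN1C and CDKN2C). For all genes tested these shares were 13% and 11.7%. The median log2 change of the 10 genes was -0.02, beside 0.02 for all genes tested. In a tissue sample, more RNA per cell and more cells of an expressing type cannot be told apart.

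**Figure D1:**
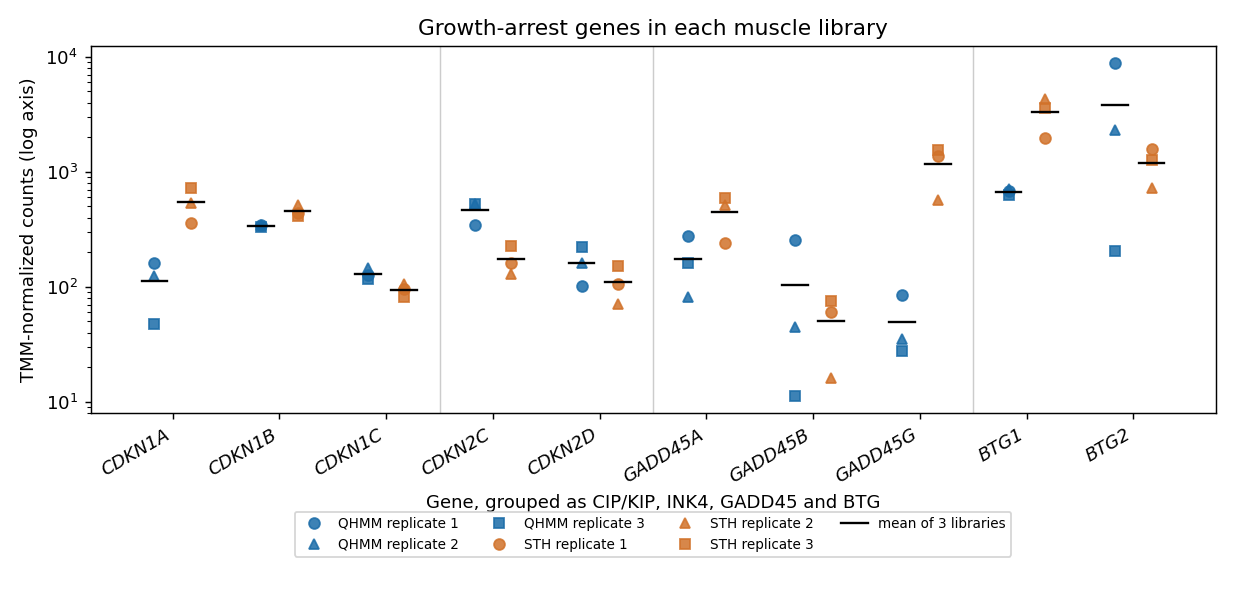
Normalized count (log axis) of the 10 genes in each of the 6 libraries, with QHMM and STH side by side and a bar at the breed mean. GADD45G, BTG1 and CDKN1A lie higher in all 3 STH libraries than in any QHMM library, CDKN2C lies lower, and BTG2 spreads from 206 to 8892 within QHMM.

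Among the CIP/KIP inhibitors, CDKN1A differed most between the breeds. This gene encodes p21, which is best known as a target of p53. Its normalized count was 162, 125 and 47.7 in the QHMM libraries and 361, 535 and 728 in the STH libraries, given here and below in the order of replicates 1, 2 and 3. All 3 STH libraries lay above all 3 QHMM libraries, and the lowest STH library held more than 2 times the highest QHMM library. The mean was 112 ± 58.2 in QHMM and 542 ± 183 in STH (SD, n = 3), with a log2 change of 2.28 (SE 0.41, edgeR FDR 0.0193). The call was lost without QHMM replicate 2, where the log2 change was 2.37 and the FDR by edgeR 0.0558.

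CDKN1B, which encodes p27, was among the steadiest genes of the data set. Its 3 QHMM libraries held normalized counts of 346, 346 and 329, and its STH libraries 437, 518 and 412. The breeds did not overlap, and within QHMM the highest library exceeded the lowest 1.05-fold. Only 0.896% of the genes tested had a smaller biological coefficient of variation than its value of 0.199. The log2 change of 0.42 (SE 0.20) was not called, with an FDR of 0.282 by edgeR. CDKN1C, the gene of p57, ran the other way, with 127, 146 and 117 in the QHMM libraries and 95.7, 106 and 81.8 in the STH libraries. Every STH library lay below every QHMM library, and the log2 change of -0.46 (SE 0.24) had an FDR of 0.335 by edgeR and was not called. The 3 genes of this family therefore had log2 changes of 2.28, 0.42 and -0.46 in the same animals.

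The INK4 inhibitors both had a lower mean in STH, and CDKN2C, the gene of p18, was called. The normalized count of CDKN2C was 345, 521 and 527 in the QHMM libraries and 162, 130.3 and 227 in the STH libraries. QHMM replicate 1 was the lowest of its breed and still lay above STH replicate 3, the highest of the other. The mean was 464 ± 103 in QHMM and 173 ± 49.5 in STH (SD, n = 3), a log2 change of -1.42 (SE 0.27, edgeR FDR 0.0228). Leaving out QHMM replicate 2, QHMM replicate 3 or STH replicate 2 ended the call, with log2 changes of -1.33, -1.32 and -1.27 and FDRs by edgeR of 0.0756, 0.0791 and 0.0655.

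CDKN2D, the gene of p19, overlapped between the breeds. Normalized counts of 101, 162 and 221 in the QHMM libraries stood beside 106, 70.5 and 151 in the STH libraries. Within each breed, the library with the highest CDKN2D count also had the highest CDKN2C count. The log2 change was -0.56 (SE 0.35, edgeR FDR 0.426). Of the other INK4 genes, CDKN2B was nearly undetected, with 0 reads in 5 libraries and 1 read in STH replicate 2. The symbol CDKN2A was not found in the deposited gene table, so its level is not known here. CDKN3, a phosphatase that acts on cyclin-dependent kinases, had 2, 1 and 9 reads in the QHMM libraries and 0, 0 and 1 in the STH libraries. These depths were too low for a test, and a count of 0 allows up to 3 reads.

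GADD45G had the largest change of the 10 genes. Its normalized count was 85.7, 35.1 and 27.4 in the QHMM libraries and 1375, 568 and 1546 in the STH libraries. The lowest STH library lay far above the highest QHMM library, and the values rest on 27 to 96 reads in QHMM and on 532 to 1666 reads in STH. The mean was 49.4 ± 31.7 in QHMM and 1163 ± 522 in STH (SD, n = 3), with a log2 change of 4.54 (SE 0.50, edgeR FDR 0.00321). Leaving out 1 library at a time gave log2 changes of 4.25 to 5.19, the highest of them without QHMM replicate 1, and the gene was called each time.

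GADD45A had a higher mean in STH, but 1 library of each breed crossed over. The normalized count of GADD45A was 276, 81.9 and 162 in the QHMM libraries and 242, 512 and 588 in the STH libraries. STH replicate 1 lay below QHMM replicate 1, whereas the other 2 STH libraries lay above all QHMM libraries. The mean was 173 ± 97.4 in QHMM and 447 ± 182 in STH (SD, n = 3), and the log2 change of 1.36 (SE 0.43) was not called, with an FDR of 0.115 by edgeR. DESeq2 called the gene, with a log2 change of 1.35 and an FDR of 0.0183, as did edgeR without STH replicate 1, with 1.64 and an FDR of 0.0497. DESeq2 called more genes in all, 3.43% higher and 4.53% lower in STH.

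GADD45B varied more between animals than between breeds. The normalized count of GADD45B was 254, 44.5 and 11.2 in the QHMM libraries and 60.2, 16 and 75.1 in the STH libraries, so that the highest and the lowest of the 6 values were both QHMM. The lowest value rests on 11 reads, with a 95% Poisson interval of 5.49 to 19.7 reads that covers counting error only. The log2 change was -1.04 (SE 0.86, edgeR FDR 0.557), and it turned to 0.85 without QHMM replicate 1. The 3 GADD45 genes thus had log2 changes of 4.54, 1.36 and -1.04.

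BTG1 was the most even of the called genes within QHMM. The normalized count of BTG1 was 678, 710.5 and 631 in the QHMM libraries and 1974, 4277 and 3621 in the STH libraries. The highest QHMM library exceeded the lowest 1.13-fold, and every STH library lay far outside that range. The mean was 673 ± 39.7 in QHMM and 3290.4 ± 1186 in STH (SD, n = 3), with a log2 change of 2.29 (SE 0.30, edgeR FDR 0.00559). It was called whichever library was left out, with log2 changes of 2.04 to 2.54.

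BTG2, the closest relative of BTG1 among the genes described, did not follow it. Its normalized count was 8892, 2302 and 206 in the QHMM libraries and 1589, 720.1 and 1268 in the STH libraries. All 3 STH values lay between the lowest and the middle QHMM value. The mean was 3800.3 ± 4533 in QHMM and 1193 ± 439.6 in STH (SD, n = 3), and the log2 change of -1.67 (SE 0.89) had an FDR of 0.336 by edgeR. Without QHMM replicate 1 the log2 change was -0.09, and without QHMM replicate 3 it was -2.23 with an FDR by edgeR of 0.0749. The other fits with 1 library left out gave -1.95 to -1.43.

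**Figure D2:**
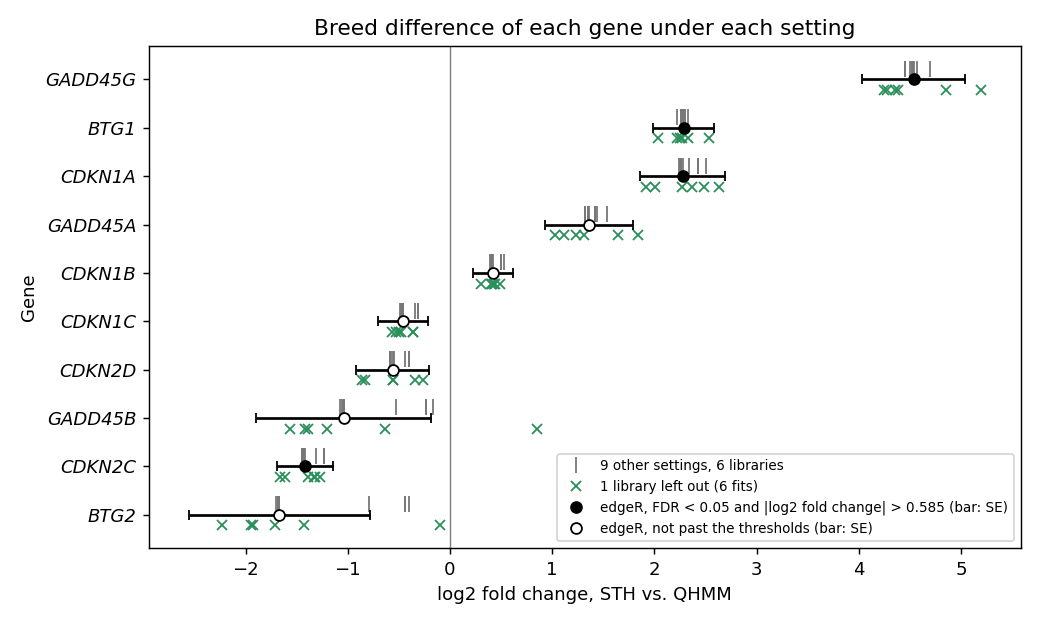
Log2 fold change (STH minus QHMM) of the 10 genes, ordered by this value, with bars of 1 SE and called genes filled. Crosses are fits that leave out 1 library, and grey ticks are the other settings with all 6 libraries. GADD45G at 4.54, BTG1 at 2.29 and CDKN1A at 2.28 stand to the right of 0. CDKN2C stands at -1.42, and the crosses of GADD45B lie on both sides of 0.

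The wider BTG family contains TOB1 and TOB2, larger proteins that also bind CCR4-NOT, and BTG3 and BTG4. TOB1 moved opposite to BTG1. For TOB1 the normalized count was 3984, 3379 and 1584 in the QHMM libraries and 1171, 549 and 651 in the STH libraries. The lowest QHMM library lay above the highest STH library, and the mean was 2982 ± 1248 in QHMM and 790.3 ± 334 in STH (SD, n = 3). TOB1 was called lower in STH with a log2 change of -1.91 (SE 0.39, edgeR FDR 0.0267). The call was lost without QHMM replicate 1, QHMM replicate 2, STH replicate 2 or STH replicate 3, with FDRs by edgeR of 0.0842, 0.0758, 0.0774 and 0.0701. TOB2 and BTG3 overlapped between the breeds, with log2 changes of -0.32 and -0.47 and FDRs by edgeR of 0.664 and 0.400. BTG4 had 0 reads in all 6 libraries, which allows up to 3 reads in each.

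Levels of different genes were compared as RPKM, which divides by gene length. The lengths implied by the deposited counts and RPKM values ran from 486 bases for CDKN1A to 2696 for BTG2. In QHMM the order of the mean RPKM was BTG2 (107), BTG1 (40.5), CDKN2C (24.4), CDKN1A (16.9), CDKN1B (12.9), CDKN1C (12.7), CDKN2D (11.4), GADD45B (9.66), GADD45A (9.64) and GADD45G (5.84). Among neighbours in this order, only BTG1 and CDKN2C had libraries that did not overlap. In STH the order was BTG1 (212), GADD45G (145), CDKN1A (87.1), BTG2 (36.1), GADD45A (25.3), CDKN1B (19.0), CDKN1C (10.2), CDKN2C (9.69), CDKN2D (8.10) and GADD45B (4.86). Here the neighbours that did not overlap were CDKN1A and BTG2, and CDKN1B and CDKN1C. GADD45G thus had the lowest mean RPKM of the 10 genes in QHMM and the second highest in STH. Against all genes tested, GADD45G lay above 54.8% by mean RPKM in QHMM and above 96.2% in STH, and CDKN1A moved from 78.1% to 94.1%. CDKN2C moved down, from 83.6% to 65.0%.

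The composition of the family RNA was described as the share of each gene in the summed RPKM. CDKN1A made up 49.1%, 41.0% and 23.4% of the summed CIP/KIP RPKM in the QHMM libraries and 68.0%, 73.1% and 82.5% in the STH libraries. GADD45G made up 20.8%, 32.5% and 24.6% of the GADD45 sum in QHMM and 89.6%, 69.5% and 82.3% in STH. CDKN2C made up 72.0%, 70.7% and 64.1% of the CDKN2C and CDKN2D sum in QHMM and 53.5%, 58.1% and 53% in STH. For these 3 genes the share did not overlap between the breeds. The share of BTG1 in the sum of BTG1 and BTG2 did overlap, at 14.3%, 40.3% and 87.0% in QHMM and 73.0%, 92.8% and 86.2% in STH. BTG2 RPKM was 6.01 times that of BTG1 in QHMM replicate 1 and 0.150 times in QHMM replicate 3, and 0.369, 0.0771 and 0.160 times in the STH libraries.

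The summed RPKM of the 3 CIP/KIP genes was 33.4 to 52.9 in QHMM and 101 to 128 in STH. For the GADD45 genes it was 11.1 to 50.4 in QHMM and 109 to 222 in STH. Both sums were higher in every STH library than in any QHMM library. The sum of CDKN2C and CDKN2D was lower, with 26.6 to 46.3 in QHMM and 13.5 to 20.02 in STH. The sum of BTG1 and BTG2 overlapped, with 46.8 to 301 in QHMM and 202 to 318 in STH. RPKM is scaled by the library total alone, and on the log2(RPKM + 1) scale the median gene stood 0.12 higher in STH, among genes of at least 1 RPKM in at least 3 libraries.

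**Figure D3:**
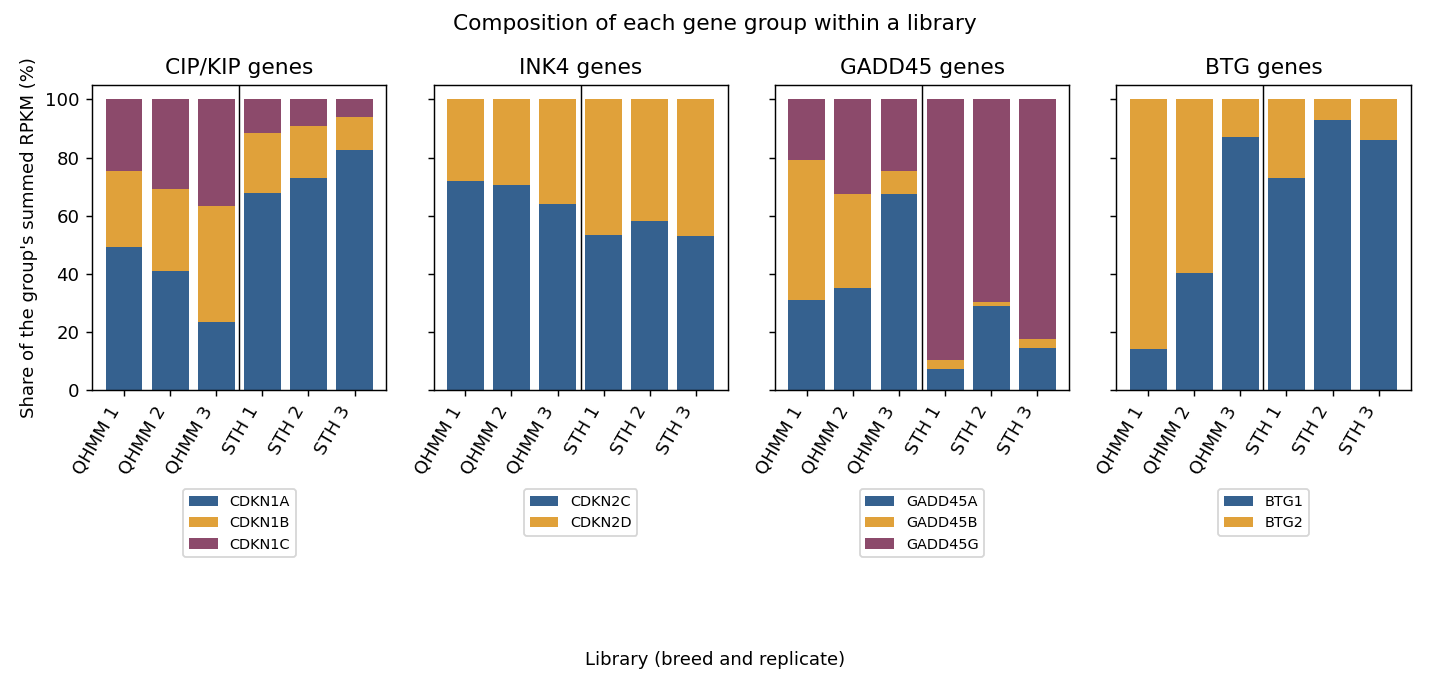
Share of each gene in the summed RPKM of its family (percent), as 1 stacked bar from 0 to 100 for each of the 6 libraries. GADD45G fills 69.5% to 89.6% of the GADD45 bars in STH and 20.8% to 32.5% in QHMM, whereas the BTG bars change from library to library within QHMM.

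The spread within QHMM set BTG2 and GADD45B apart from the other genes. The highest QHMM library exceeded the lowest 43.2-fold for BTG2 and 22.7-fold for GADD45B, and in both genes QHMM replicate 1 was highest and QHMM replicate 3 lowest. Among the 11268 genes for which this ratio was computed, 0.124% had a larger ratio than BTG2 and 0.275% a larger one than GADD45B. In STH the corresponding ratios were 2.21 and 4.68. CDKN1A, with 162 against 47.7, and GADD45G, with 85.7 against 27.4, were also highest in QHMM replicate 1 and lowest in QHMM replicate 3. BTG1 and CDKN1B stayed within 1.13-fold and 1.05-fold across the QHMM libraries. PLK3, a stress-induced kinase on the list of p53 targets, was also high in QHMM replicate 1 with a normalized count of 504 and low in QHMM replicate 3 with 57.9.

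The kinases and cyclins that these inhibitors act on, and the genes downstream, were taken as lists. Of the genes on 10 lists, 72 were tested, and 0 of these were on the list of CDKN2A, CDKN2B and CDKN3. Over all genes tested, 2395 of 12506 (19.2%) had an unadjusted p below 0.05 by edgeR, and the counts at that level given for the lists below stand beside this share. Of the G1 cyclins and their kinases, 0 of 7 tested genes were called, 3 had an unadjusted p below 0.05, and the median log2 change was 0.06. CCND1, a partner of CDK4 and CDK6, had normalized counts of 53.6, 37.5 and 27.4 in the QHMM libraries and 17.3, 6.41 and 8.96 in the STH libraries. The breeds did not overlap, and the log2 change of -1.82 (SE 0.47) had an FDR of 0.0642 by edgeR and of 0.0141 by DESeq2. CCND3 had a log2 change of 0.87 (SE 0.23, edgeR FDR 0.0707), and DESeq2 called CCND1 lower and CCND3 higher. The kinases CDK4, CDK2 and CDK6 had log2 changes of 0.06, 0.07 and -0.34.

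Of the retinoblastoma family and E2F factors, 0 of 7 tested genes were called by edgeR or by DESeq2 and 0 had an unadjusted p below 0.05. Their median log2 change was 0.20, and the lowest FDR by edgeR was that of E2F4, at 0.408 with a log2 change of 0.36. Among the genes of S phase and mitosis, CDK1 had 0 to 6 reads per library and CCNA2 3 to 5, too few for a test. The replication helicase subunit MCM7 had normalized counts of 438 to 556 in QHMM and 699 to 803 in STH. Its log2 change was 0.65 (SE 0.20, edgeR FDR 0.110). Of 14 genes on this list that were tested, 0 were called by edgeR or by DESeq2. Of these, 3 had an unadjusted p below 0.05, a share close to that of all genes tested. In this list 10 had a lower and 4 a higher value in STH, with a median log2 change of -0.15. TOP2A, a topoisomerase of dividing cells, had the lowest FDR by edgeR, 0.0993, with a log2 change of -1.85 (SE 0.56). Its normalized count was 14.3, 15.2 and 39.6 in the QHMM libraries and 5.78, 5.34 and 7.84 in the STH libraries, without overlap. These values rest on 5 to 39 reads. Without QHMM replicate 3 the log2 change of TOP2A was -1.21, with an FDR by edgeR of 0.355. For 3 genes of this list all STH libraries lay below all QHMM libraries (TOP2A, MKI67 and PCNA), and for 1 above (MCM7). Over all genes tested, these shares were 11.7% and 13%. MKI67 and PCNA had log2 changes of -1.18 and -0.26, with FDRs by edgeR of 0.162 and 0.583.

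Of the CCR4-NOT genes, through which BTG and TOB proteins act on mRNA, 0 of 9 tested were called by edgeR or by DESeq2 and 0 had an unadjusted p below 0.05. Their log2 changes ran from -0.26 to 0.53 with a median of 0.15, and the lowest FDR by edgeR was that of CNOT10, at 0.335 with a log2 change of 0.46. Of the kinases that GADD45 proteins act through, 0 of 6 were called by edgeR or by DESeq2 and 3 had an unadjusted p below 0.05. The lowest FDR by edgeR was 0.176 for MAP2K3, a kinase upstream of p38, with a log2 change of 0.88 (SE 0.33). MAP3K4, the direct partner of GADD45 proteins, had a log2 change of -0.57 and an FDR of 0.225 by edgeR. The SCF-SKP2 ligase marks p27 for degradation, and 0 of its 5 genes were called by edgeR or by DESeq2, with 1 at an unadjusted p below 0.05. The lowest FDR by edgeR on that list was 0.249 for CUL1, with a log2 change of 0.62.

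CDKN1A, GADD45A and BTG2 are known p53 targets, and 1 of 14 tested genes on a list of p53, its regulators and other targets was called. SESN1, a sestrin that restrains mTORC1, had normalized counts of 497, 586 and 789 in the QHMM libraries and 3844, 6714 and 4414 in the STH libraries. All STH libraries lay far above all QHMM libraries, with a log2 change of 3.0 (SE 0.30, edgeR FDR 0.00231). The median log2 change on this list was 0.22, and 5 of the 14 genes had an unadjusted p below 0.05. MDM2, BAX and CCNG1, which are p53 targets too, had log2 changes of -0.42, -0.04 and -0.62 and were not called.

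Genes that respond to denervation and fasting of muscle were the list with the most calls, 3 higher and 0 lower of 7 tested. Over all genes tested, 1.62% were called higher and 1.83% lower. On this list 6 had a higher and 1 a lower value in STH, and the median log2 change was 1.11. CHRNA1 overlapped between the breeds, with a log2 change of 0.18 (edgeR FDR 0.837). CHRNG had 10, 11 and 27 reads in the QHMM libraries and 6, 2 and 7 in the STH libraries, and was not tested. TRIM63, the muscle ubiquitin ligase MuRF1, had normalized counts of 3392, 3505 and 2696 in the QHMM libraries and 16746, 60978 and 32659 in the STH libraries. Its log2 change was 3.52 (SE 0.44, edgeR FDR 0.00489), and 2.94 without STH replicate 2. FBXO32, the ligase atrogin-1, had normalized counts of 530.3, 956 and 683 in QHMM and 2062, 10122 and 1708 in STH. Both ligases were highest in STH replicate 2, the library that was also highest for BTG1.

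The log2 change of FBXO32 was 2.68 (SE 0.61, edgeR FDR 0.0433), and it was 1.37 without STH replicate 2. Its call was lost without QHMM replicate 1, 2 or 3, with FDRs by edgeR of 0.132, 0.0924 and 0.127. HDAC4, a deacetylase that rises in denervated fibres, had a log2 change of 1.11 (SE 0.26, edgeR FDR 0.0475). The call of HDAC4 was lost without any one library other than STH replicate 1, with FDRs by edgeR of 0.0845 to 0.156. MYOG, which also belongs to the denervation response, had a log2 change of -1.76 with an FDR of 0.0550 by edgeR, and its STH libraries all lay below its QHMM libraries. DESeq2 called MYOG lower in STH, as did edgeR with no filter, with at least 10 counts in every library, with a replicate block and without STH replicate 1. The part of the fast before slaughter in the differences on this list was not tested.

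**Figure D4:**
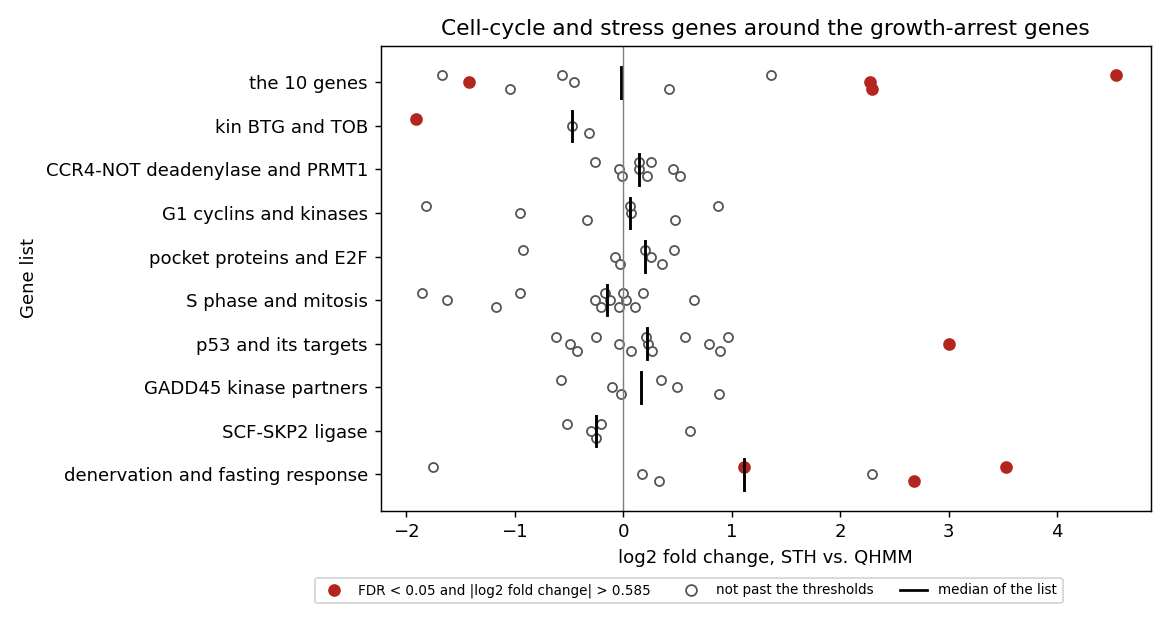
Log2 fold change (STH minus QHMM) of each tested gene on the pathway lists, with a bar at the median of each list and called genes filled. The denervation and fasting list has its median at 1.11 and 3 called genes, the p53 list has SESN1 at 3.0, and the lists of CCR4-NOT, E2F and S phase genes hold no called gene.

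Markers of other cell types were examined because the samples were whole muscle. Of 5 adipocyte markers, 4 were called lower in STH. These were ADIPOQ, PLIN1, LEP and CIDEC, with log2 changes of -2.13, -2.37, -4.21 and -2.44. FABP4 overlapped between the breeds, with a log2 change of -0.04 (edgeR FDR 0.980). The summed level of the list also overlapped, at 59.2 to 276 RPKM in QHMM and 40.3 to 129 RPKM in STH. Of the lymphocyte markers, all 6 tested had lower values in STH, 0 were called by edgeR, 2 had an unadjusted p below 0.05, and DESeq2 called CD2. Their sum was 12.8 to 22.3 RPKM in QHMM and 6.70 to 14.8 RPKM in STH. Of the macrophage, endothelial and fibroblast markers, 0 of 6, 0 of 3 and 0 of 4 were called by edgeR. Macrophage sums were 92.3 to 97.8 RPKM in QHMM and 44.8 to 146 RPKM in STH, endothelial sums 109 to 137 and 110.5 to 178 RPKM, and fibroblast sums 278 to 524 and 201 to 406 RPKM. All 4 fibroblast markers tested had lower values in STH, with a median log2 change of -0.68, and DESeq2 called COL1A1, whose log2 change was -1.30 without overlap between the breeds. Satellite cell markers summed to 0.923 to 4.19 RPKM in QHMM and 0.966 to 4.41 RPKM in STH, with 0 of 2 called. The erythroid marker ALAS2 reached at most 0.403 RPKM. The part of these cell types in the differences of the 10 genes was not tested.

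The genes whose pattern over the 6 libraries was most like that of each called gene were found by Pearson's r of log2 CPM among 11271 genes. As the breeds form separate clusters, these coefficients describe likeness and carry no p-value. CDKN1A was most like LOC443178 (r = 0.993), RPL35 (0.992) and NUMBL (0.987). CDKN2C was most like BPNT1 (0.994), NOP10 (0.993) and SETD3 (0.992). For GADD45G they were the myogenic factor MYF6 (0.993), the fatty acid binding protein FABP5 (0.991) and OS9 (0.989). For BTG1 they were FNTB (0.996), the ligase TRIM63 (0.996) and DOM3Z (0.995). The coefficient takes no account of the size of a change. In the order given, log2 changes were 0.55, 0.60 and 0.61 for the genes most like CDKN1A. They were -0.38, -0.48 and -0.84 for CDKN2C, 1.41, 1.79 and 0.34 for GADD45G, and 1.44, 3.52 and 0.38 for BTG1.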

How the data were processed

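RNA-seq of 6 muscle libraries was analysed from the deposited tables. The authors sequenced poly(A) RNA on an Ion Proton, mapped the reads to the sheep genome (Oar 3.1 per the labels), kept unique mapped reads and deposited raw counts per gene and RPKM values. The counting program and its strand setting are not given in the sources used here, so reads of close paralogs or antisense genes may be assigned imperfectly. The RPKM values deposited by the authors divide each count by the gene's length and the library's total on genes. Among their gene names, 25 had become dates and were left out. Library totals of 10982191 to 14334544 reads leave genes of few reads imprecise. Poisson intervals cover counting error only.

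Counts were tested in R 4.3.3 with edgeR 4.0.16 (TMM, filterByExpr on breed, glmQLFit and glmQLFTest, breed only), with Benjamini-Hochberg adjustment over 12506 genes and the thresholds of the study. Its program, EBSeq, was not installed. The SE is the absolute log2 fold change divided by the square root of F. As each library is 1 animal, p-values measure the spread between animals, and for a single gene an exact permutation test of 3 against 3 cannot go below 0.1. Alternatives were DESeq2 1.42.0, upper-quartile normalization, no filter, at least 10 counts in every library, a replicate block, robust dispersions, an FDR of 0.01 or of 0.05 alone, limma-trend (limma 3.58.1) on log2(RPKM + 1) with and without a filter (RPKM of at least 1 in 3 libraries) and on log2(RPKM + 0.1), and leaving out each library in turn. The tests were tried on simulated counts first. Python 3.11.15 with NumPy 2.4.6, SciPy 1.17.1, pandas 2.3.3 and matplotlib 3.10.9 was used for summaries and plots.

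The 10 genes and all lists were chosen with earlier results of these data known. Named were the 10 genes and, of each list, the called genes, at most 4 by FDR, or else the gene with the lowest FDR. Likeness used the 3 genes with the highest r among genes with a mean count of at least 20 (prior count 1). Other list and marker genes were named after their values were seen.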

Additional observations from a re-analysis of the deposited data

How the results depend on the processing

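Of 150 values of the 10 genes under the alternatives, 140 kept their direction and their side of the threshold, 6 lost the call (CDKN1A and CDKN2C), 3 gained it (GADD45A), and GADD45B, which ran from -1.57 to 0.85 with 1 library left out, reversed to 0.85 without QHMM replicate 1. GADD45G and BTG1 were called under every alternative. The number of the 10 genes called lower in STH was 0 with limma-trend without a filter and 0 at an FDR of 0.01, and 0 to 1 when 1 library was left out. The number called higher stayed at 2 to 4. List genes called higher numbered 4, and 2 with limma-trend without a filter, 2 at an FDR of 0.01, and 2 to 6 with 1 library left out. List genes called lower numbered 1 (TOB1), 3 with DESeq2, 3 with no filter, 2 with at least 10 counts in every library, 0 with limma-trend without a filter, 0 at an FDR of 0.01, and 0 to 3 with 1 library left out. For the 11 other named genes, 135 of 161 values kept their side, 22 lost the call (FBXO32, HDAC4 and TOB1) and 4 gained it (CCND1). The causes were not tested. Over all genes, 432 calls became 975 with DESeq2, 806 with no filter, 78 with limma-trend without a filter and 41 at an FDR of 0.01. Leaving out QHMM replicate 1, 2 or 3 gave 131, 208 and 150 calls, and leaving out STH replicate 1, 2 or 3 gave 535, 183 and 329. Calls higher in STH were 47.0% of the 432, and 61.3%, 61.9% and 69.2% with limma-trend on log2(RPKM + 1), on log2(RPKM + 0.1) and without a filter. The labels do not say that the replicate numbers pair the animals. The deviations of same-numbered libraries correlated at 0.221, -0.03 and -0.125, and those of other-numbered libraries at -0.260 to 0.278. With 3 libraries per breed, these values cannot exclude a pairing. With the replicate block, 457 genes were called, the same 4 of the 10 genes among them, and 3 list genes were called lower. Genes of few reads are limited by depth. The biological coefficient of variation, which estimates spread beyond counting error, was 0.704 for GADD45B with 11 to 284 reads. It was 0.707 for BTG2 with 203 to 9961 reads and 0.221 for CDKN1C with 73 to 142 reads.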

Other observations

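BTG2 and GADD45B were examined for likeness after their values had been seen. Over the 6 libraries, BTG2 was most like SEMA4C (Pearson's r = 0.988 on log2 CPM), and GADD45B most like THSD1 (0.996). SEMA4C had normalized counts of 240.1, 169 and 57.9 in the QHMM libraries and 119, 90.8 and 111 in the STH libraries. THSD1 had 115, 77.2 and 54.8 in QHMM and 78.4, 62.0 and 85.1 in STH. In both genes QHMM replicate 1 was highest and QHMM replicate 3 lowest, the order seen in BTG2 and GADD45B.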
